A study of Mus musculus with 6 samples.

Results

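In hearts that had lost Mrps5 from cardiomyocytes, the MYC network shifted toward Myc at the transcript level. Myc, the growth-promoting activator of the network, rose 3.7-fold in mean level, while Max, the partner that MYC needs to bind DNA, dropped to 59.2% of the control mean. The glucose-responsive factor Mlxip was also lower in every fit tried. The repressor Mxi1 was called lower too, but lost its call in 7 of 14 alternative fits, as Max did in 2, and the repressors Mnt, Mxd1 and Mxd4 did not pass the test in either direction. Among genes that MYC is known to activate, on a list written with earlier results of these data known, 41 of 59 tested were higher in the mutant hearts and 3 were lower, beside 16.3% higher and 17.0% lower among all genes tested.

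The network examined here consists of 10 genes, namely Myc, Mycn, Mycl, Max, Mxd1, Mxd4, Mxi1, Mnt, Mlx and Mlxip, taken by gene name from a table of 54532 genes. RNA was sequenced from the hearts of 6 mice, and expression was deposited as FPKM, which counts fragments per kilobase of gene length, normalised to a library size set by the authors. Both groups carried floxed Mrps5 alleles (Mrps5 fl/fl) and both received tamoxifen from the age of 8 weeks (5 daily injections, 45 mg per kg each), with hearts taken 12 weeks after injection. The 3 Ctrl mice carried no Cre, and the 3 cKO mice (Mrps5 fl/fl; MCM) carried in addition MCM, a tamoxifen-inducible MerCreMer driven in cardiomyocytes by the alpha-myosin heavy chain promoter. The presence of Cre and the loss of Mrps5 therefore cannot be told apart. Heart tissue holds vessels, fibroblasts and immune cells beside the cardiomyocytes in which Mrps5 was deleted. In such bulk samples, fewer cells of a type and less RNA per cell cannot be told apart. The methods describe the controls as littermates and the tissue as ventricular, and which hearts shared a litter is not given in the sources used here.

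MYC proteins and MAX form heterodimers through their helix-loop-helix and leucine zipper regions and bind the E-box CACGTG, where they recruit histone acetyltransferases and raise transcription of genes for ribosome assembly, nucleotide synthesis and growth. MXD proteins, MXI1 and MNT compete for the same MAX and the same sites, and bring the SIN3 and histone deacetylase complex in place of the activators. MLX is a second partner, which joins MLXIP (MondoA) or MLXIPL (ChREBP), factors that respond to phosphorylated glucose. In the adult heart MYC is known to be low, and to rise under load and other stress.

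The E-box itself could be looked for in the promoters of the network, in RefSeq windows of GRCm38.p6 that run from 250 bases before to 50 bases after each annotated start. A window was found for 9 of the 10 members. Max, Mlx, Mnt and Mxd4 each held 1 CACGTG, and Mycn, Mycl, Mxd1, Mxi1 and Mlxip held none in their windows. The following stretches of 30 bases show where it lies in Max and Mlx, the partners on which the network rests, in Mnt and Mxd4, and in Klf15, a metabolic factor of the heart. Capitals mark the E-box, each stretch reads along the strand of its gene, and positions are those of the first capital, counted from the annotated start with negative numbers before it.
Max (chr12:76962234-76962263, minus strand, position -3): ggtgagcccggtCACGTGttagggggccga
Mlx (chr11:101087238-101087267, plus strand, position -40): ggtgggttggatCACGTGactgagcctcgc
Mnt (chr11:74830789-74830818, plus strand, position -123): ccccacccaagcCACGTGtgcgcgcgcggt
Mxd4 (chr5:34187912-34187941, minus strand, position -219): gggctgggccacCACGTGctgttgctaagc
Klf15 (chr6:90462336-90462365, plus strand, position -228): ctcccgaggtccCACGTGgtctgcacttcg
Klf15 (chr6:90462392-90462421, plus strand, position -172): tagaacccgtctCACGTGcgcatcggagga
Klf15 (chr6:90462561-90462590, plus strand, position -3): cgcccgcggcgtCACGTGagcggccggaga

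Among all 27025 genes with a window, 8.09% held at least 1 CACGTG, and only 25 genes (0.0925%) held 3 or more, as Klf15 did. CACGTG reads the same on both strands. The looser motif CANNTG, which every CACGTG also matches, was present in 75.0% of genes and in 7 of the 9 members with a window. The windows were not matched for base composition, and a match in the letters is not evidence of binding.

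The libraries held 15989322 to 24875499 reads assigned to genes, a number worked back from FPKM and gene length. The library size that the deposited FPKM imply was 0.913 to 0.98 times this total in Ctrl and 1.06 times in each cKO heart, so the FPKM are not plain shares of the assigned reads, and this scaling differed between the groups. The deleted gene checked the labels. Mrps5 (chromosome 2, 127587222 to 127606829 in GRCm38) measured 5.20, 6.45 and 6.33 FPKM in the controls (replicates 1, 2 and 3, the order used throughout) against 1.12, 1.23 and 1.31 FPKM in the mutants (log2 fold change -1.65, SE 0.0944, limma adjusted p = 0.000202). Of 8 cardiomyocyte markers, 5 were lower in cKO, with a summed level of 16453 to 20387 FPKM in Ctrl and 9261 to 15120 FPKM in cKO, and of 6 endothelial markers 4 were lower (120 to 140 FPKM against 78.2 to 93.2 FPKM). No marker of either list was at 0 in all hearts, so both cell types were present in the tissue. Of the other lists, fibroblast markers had 2 higher and 1 lower of 6, smooth muscle and pericyte markers 1 higher and 1 lower of 4, and macrophage markers 1 lower of 6. Atrial markers varied between hearts, with a summed level of 25.2 to 990 FPKM in Ctrl and 105 to 714 FPKM in cKO, and like the erythroid, adipocyte and Schwann cell markers had no call in the limma fit, at an unadjusted p under 0.05 or by voom. Lymphocyte markers lay below the minimum level for a test, with Ms4a1 at 0. None of the 4 proliferation markers Mki67, Top2a, Ccnb1 and Cdk1 reached the minimum level for a test, with a summed level of 0.587 to 1.4 FPKM in Ctrl and 0.306 to 1.14 FPKM in cKO. cKO replicate 2 stood apart in that its Y-linked genes were at 0 and Xist was at 10.7 FPKM, against at most 0.127 FPKM in the other 5 hearts. This is the pattern of a female heart, while the study reports the use of male mice only. Among the members, results for Myc, Max, Mxi1, Mxd4 and Mlxip are therefore also given without it.

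Fold changes below are differences of log2(FPKM + 1), cKO minus Ctrl, fitted with limma across every gene whose mean over the hearts reached 0.5 FPKM and called at a Benjamini-Hochberg adjusted p under 0.05. Of the 12944 genes tested, 33.3% were called, 16.3% as higher and 17.0% as lower. Of the 10 members, 8 reached the minimum, and of these 1 was higher, 3 were lower and 4 passed in neither direction. Their share of calls is thus 4 of 8 beside that background. The groups did not overlap for 5 of the 8, where 51.2% of all genes tested showed no overlap, so separation of the groups alone does not set the members apart from other genes.

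**Figure D1:**
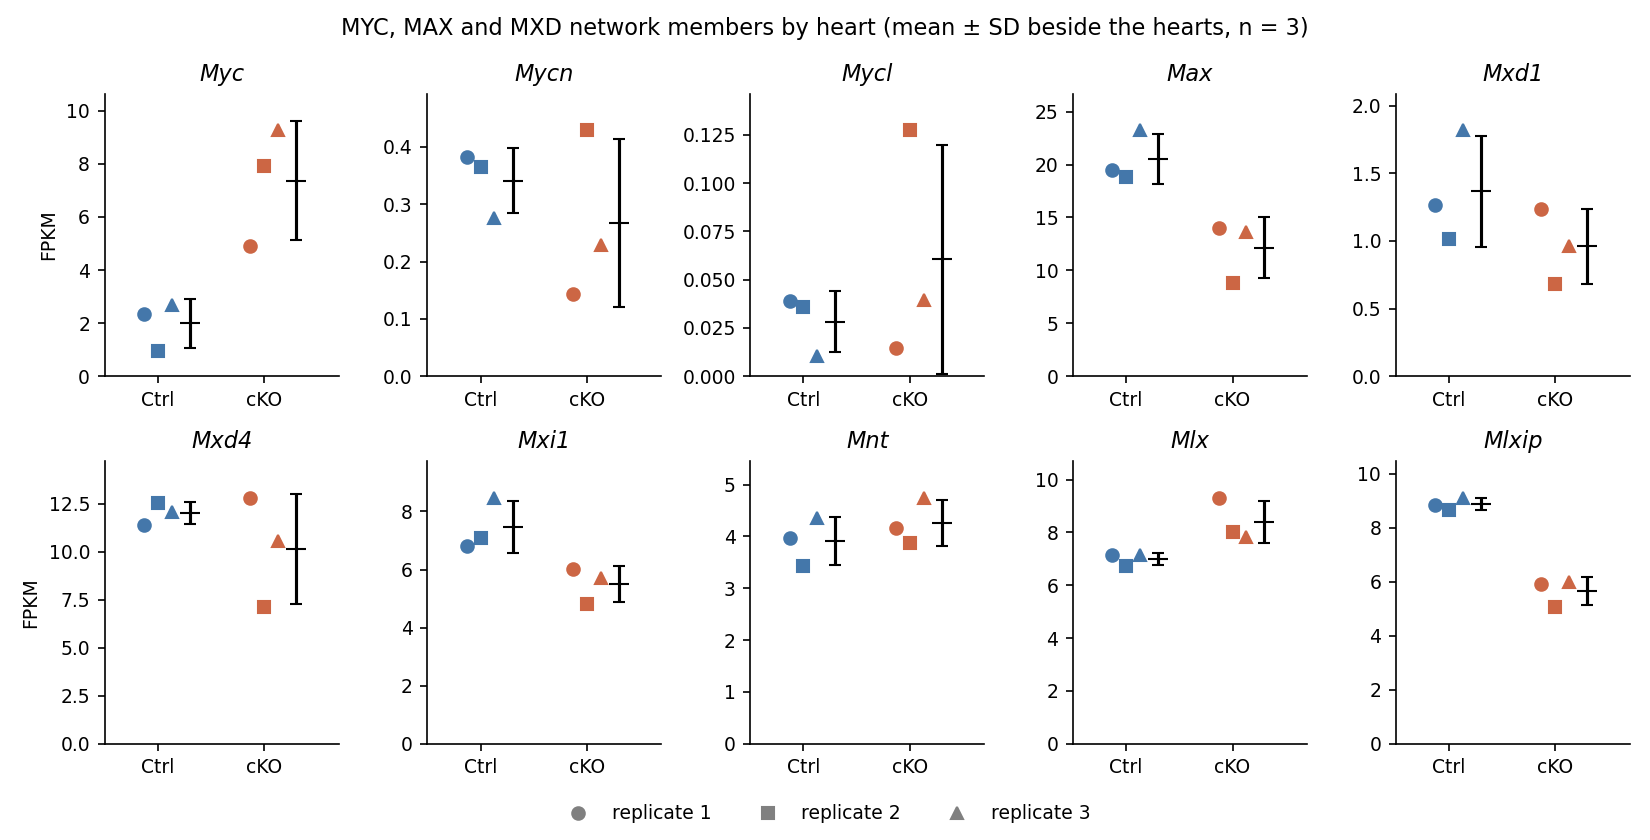
FPKM (vertical axes, each starting at 0 with its own scale) of the 10 members in each Ctrl heart (blue) and cKO heart (orange), with symbols for replicate number and the mean ± SD (n = 3) beside each group. The 3 cKO hearts lie above all Ctrl hearts for Myc and Mlx, and below all of them for Max, Mxi1 and Mlxip.

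Myc (ENSMUSG00000022346, chromosome 15, 61985391 to 61990374, plus strand) was the member with the largest change. The controls measured 2.34, 0.956 and 2.68 FPKM, resting on 121, 54 and 176 reads, and the mutants 4.89, 7.93 and 9.26 FPKM, resting on 225, 503 and 633 reads. Every cKO heart lay above every Ctrl heart, and the spread within each group was wide, with cKO replicate 1 lowest among the mutants and Ctrl replicate 2 lowest among the controls. In the mean, Myc went from 1.99 ± 0.912 to 7.36 ± 2.24 FPKM (SD, n = 3 per group). The log2 fold change was 1.5 (SE 0.289, adjusted p = 0.00922), with a 95% interval of 0.81 to 2.18. As a single value it reached an exact permutation p of 0.1 (two-sided), which is the smallest that 3 against 3 hearts allow. Without cKO replicate 2 the log2 fold change was 1.43 (adjusted p = 0.0254).

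The other MYC paralogs were close to the limit of detection. Mycn, which drives growth of the embryonic heart, measured 0.382, 0.365 and 0.276 FPKM in the controls against 0.143, 0.429 and 0.229 FPKM in the mutants, from 8 to 33 reads per heart. Mycl was covered by 3, 3 and 1 reads in Ctrl and by 1, 12 and 4 reads in cKO. Both fell below the minimum level for a test, the groups overlapped, and a difference was not detectable at this depth. Myc alone made up 70.5% to 90.3% of the summed FPKM of the 3 paralogs in Ctrl and 93.4% to 97.2% in cKO.

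Max (ENSMUSG00000059436, chromosome 12, 76937269 to 76962201, minus strand) had the highest mean FPKM of the network in both groups and fell in cKO. It measured 19.5, 18.8 and 23.2 FPKM in the controls against 14.0, 8.81 and 13.6 FPKM in the mutants, from 740 to 2022 reads per heart. All cKO hearts were below all Ctrl hearts, and cKO replicate 2 was the lowest. The means were 20.5 ± 2.37 and 12.1 ± 2.9 FPKM (log2 fold change -0.73, SE 0.176, adjusted p = 0.0197). Without cKO replicate 2 the change was -0.53 (adjusted p = 0.0147). The call was lost without Ctrl replicate 3, the control heart with the most Max, at a log2 fold change of -0.64 (adjusted p = 0.0678).

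Among the repressors that share MAX, Mxi1 was the only one called. It measured 6.82, 7.09 and 8.47 FPKM in the controls against 6.01, 4.81 and 5.70 FPKM in the mutants (log2 fold change -0.38, SE 0.108, adjusted p = 0.0356). The groups did not overlap, yet the lowest Ctrl and the highest cKO heart lay close together. The call was lost on leaving out any heart but cKO replicate 1, with adjusted p of 0.0526, 0.074 and 0.101 without Ctrl replicates 1, 2 and 3, and of 0.075 and 0.0699 without cKO replicates 2 and 3. It was also lost when libraries were scaled without the genes of mitochondrial DNA (adjusted p = 0.0916).

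Mxd4, the repressor with the highest mean FPKM here, measured 11.4, 12.6 and 12.1 FPKM in the controls against 12.8, 7.11 and 10.6 FPKM in the mutants (log2 fold change -0.25, adjusted p = 0.326, 95% interval -0.69 to 0.18). Its cKO hearts spanned the controls, with cKO replicate 1 above all of them and cKO replicate 2 far below. Without cKO replicate 2 the difference was -0.04. Mxd1, a repressor that accompanies differentiation in many cell types, measured 1.27, 1.01 and 1.82 FPKM in the controls against 1.24, 0.684 and 0.961 FPKM in the mutants (log2 fold change -0.27, adjusted p = 0.231, 95% interval -0.64 to 0.10). Mnt, the broadly expressed antagonist of MYC, measured 3.97, 3.43 and 4.35 FPKM in the controls against 4.16, 3.88 and 4.74 FPKM in the mutants (log2 fold change 0.10, adjusted p = 0.488, 95% interval -0.14 to 0.34). For these 3 genes the groups overlapped, and the intervals allow both a moderate difference and none.

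**Figure D2:**
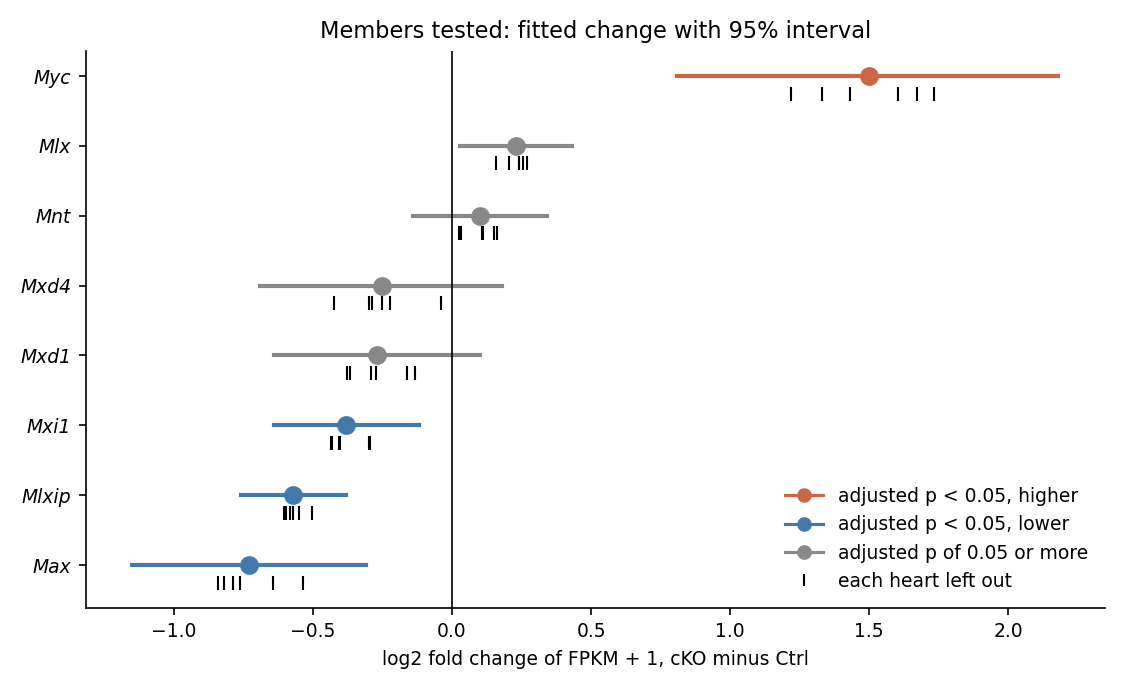
Fitted log2 fold change of FPKM + 1 (horizontal axis, cKO minus Ctrl) of the 8 members tested, with 95% intervals as bars, and as ticks the value with each of the 6 hearts left out in turn. Myc lies apart on the right at 1.5, Max, Mlxip and Mxi1 lie to the left, and every tick stays on the side of its point.

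In the MLX branch the sensor Mlxip fell, and its partner Mlx did not pass the test. Mlxip (ENSMUSG00000038342, chromosome 5, 123394798 to 123457932, plus strand), which encodes MondoA, the sugar-responsive factor prominent in muscle, measured 8.82, 8.66 and 9.10 FPKM in the controls against 5.92, 5.07 and 5.997 FPKM in the mutants. Its hearts varied little within a group, and the groups were well separated. The means were 8.86 ± 0.225 and 5.66 ± 0.517 FPKM, so that 63.9% of the control level was left (log2 fold change -0.57, SE 0.0805, adjusted p = 0.00331). The change was -0.50 without cKO replicate 2 (adjusted p = 0.00578).

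Mlx (chromosome 11, 101087277 to 101092207, plus strand) measured 7.14, 6.71 and 7.13 FPKM in the controls against 9.31, 8.01 and 7.84 FPKM in the mutants. Every cKO heart was above every Ctrl heart, and the difference did not pass the adjusted threshold (log2 fold change 0.23, SE 0.0833, adjusted p = 0.0744, 95% interval 0.03 to 0.43). It passed when libraries were scaled without the genes of mitochondrial DNA (0.31, adjusted p = 0.0458). Mlx overlaps Psmc3ip on the opposite strand over 385 bases. Whether counting used the strand was not stated, so reads of the 2 genes may be mixed or left out there. Max and Mlxip also overlap other genes, which were very low. Max overlaps Gm47218 on the same strand over 1319 bases (mean 0.161 FPKM). Mlxip overlaps genes with a mean of at most 0.0255 FPKM each, over up to 5378 bases. The ratio of Mlxip to Mlx in FPKM was 1.24, 1.29 and 1.28 in Ctrl and 0.636, 0.632 and 0.765 in cKO. It was thus lower in every mutant heart than in any control heart. Which gene has more transcripts cannot be read from it, since it rests on annotated lengths of 8326 bases for Mlxip and 1999 for Mlx.

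Of the relatives outside the 10 members, Mlxipl, which encodes ChREBP, the other glucose-responsive partner of MLX, measured 4.37, 5.23 and 4.66 FPKM in the controls against 1.57, 2.95 and 1.96 FPKM in the mutants (log2 fold change -0.89, SE 0.159, adjusted p = 0.00726). Both sugar-responsive partners of MLX were thus lower in cKO. Mga, a large MAX-binding repressor, measured 2.49, 3.09 and 2.71 FPKM in the controls against 1.86, 2.22 and 2.16 FPKM in the mutants (log2 fold change -0.29, adjusted p = 0.0502), on the edge of the threshold. Mxd3 was covered by at most 9 reads in any heart and was not tested.

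FPKM is scaled by the deposited gene length, from 1999 bases for Mlx to 8483 for Mxd4. Orders and ratios between members hold only as far as that length matches the transcripts in the heart, which was not checked. In Ctrl the order by mean was Max, Mxd4, Mlxip, Mxi1, Mlx, Mnt, Myc, Mxd1, Mycn and Mycl. Only Mxi1 and Mlx, and Myc and Mxd1, overlapped with their neighbour there. In cKO the order was Max, Mxd4, Mlx, Myc, Mlxip, Mxi1, Mnt, Mxd1, Mycn and Mycl, and each of the first 6 overlapped with the next in rank except Mxi1, which did not overlap with Mnt. Myc thus stood in place 7 of 10 in Ctrl and in place 4 in cKO, on a level with Mlx and Mlxip.

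Since Myc and Max went in opposite directions, their proportion changed by more than either gene. The ratio of Max to Myc in FPKM was 8.34, 19.7 and 8.68 in the Ctrl hearts and 2.87, 1.11 and 1.47 in the cKO hearts. The summed FPKM of Mxd1, Mxd4, Mxi1 and Mnt was 8.51, 17.8 and 9.01 times that of the 3 MYC paralogs in Ctrl. In cKO it was 4.8, 1.94 and 2.3 times that sum. The repressor sum itself overlapped between groups, at 23.5 to 26.7 FPKM in Ctrl and 16.5 to 24.2 FPKM in cKO. Max relative to all of its listed users, the MYC paralogs and repressors together, was 0.744, 0.740 and 0.783 in Ctrl and 0.479, 0.353 and 0.432 in cKO. These ratios are given as a description of FPKM, with no test, and do not depend on how libraries are scaled. Their size depends on the gene lengths used, while the fold change of the Max to Myc ratio between groups does not.

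**Figure D3:**
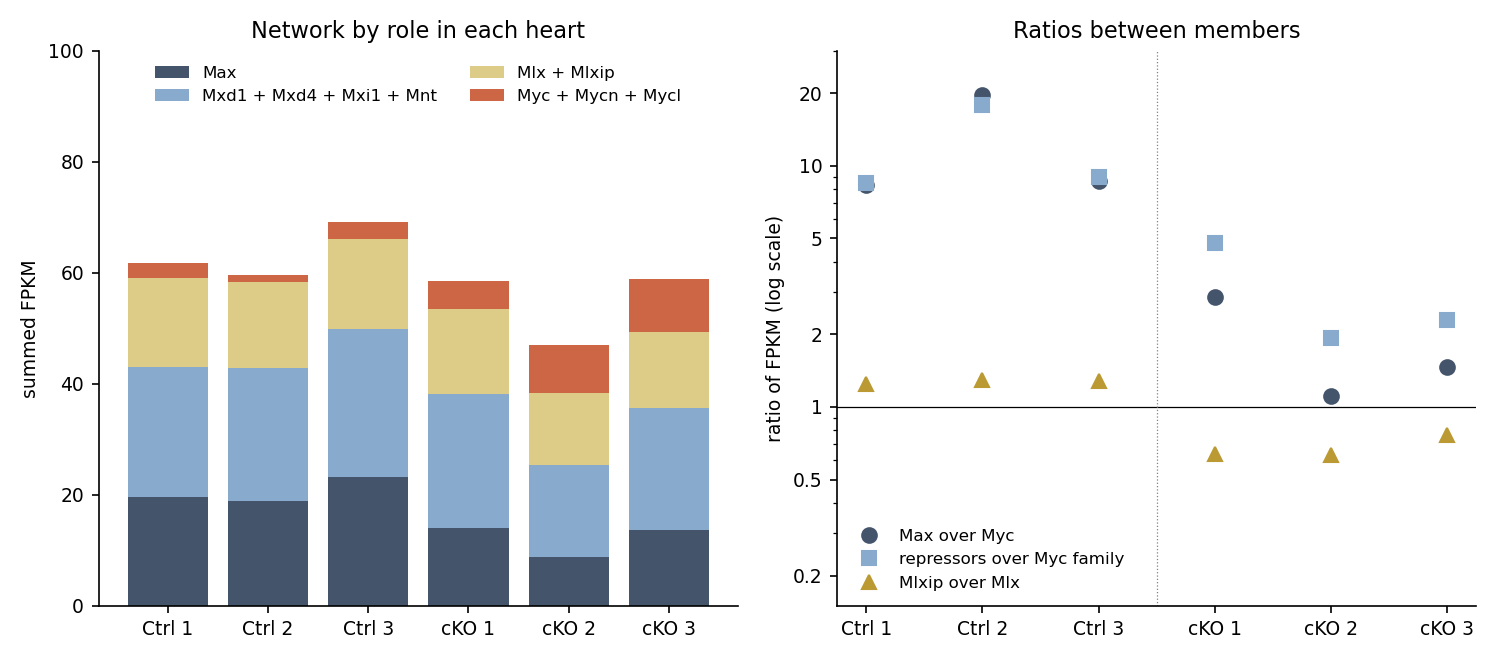
Left, summed FPKM of Max, the repressors, Mlx with Mlxip, and the MYC paralogs, stacked for each heart. Right, ratios of FPKM on a log scale, with a line at 1. Myc paralogs make up the thin top of each Ctrl bar (1.36 to 2.96 FPKM) and a thicker one in cKO (5.05 to 9.53 FPKM), and all 3 ratios are lower in every cKO heart than in any Ctrl heart.

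Most of the tested genes that MYC is known to activate, many of them for ribosome assembly, were higher in the mutants. Of 63 listed, 59 were tested, 41 (69.5%) were higher and 3 (5.08%) were lower, beside 16.3% and 17.0% of all genes tested, and the median log2 fold change was 0.48 against -0.02 for all genes. Counts of a list carry no test here. The largest increase was in Tfrc, the transferrin receptor for iron uptake, at 2.73, 3.38 and 3.96 FPKM in Ctrl and 17.6, 17.6 and 10.5 FPKM in cKO (log2 fold change 1.87, SE 0.206, adjusted p = 0.00166). Rrp12, a factor of ribosomal subunit maturation and export, followed at 8.50, 8.36 and 6.61 FPKM in Ctrl and 29.4, 34.3 and 22.3 FPKM in cKO (1.74, SE 0.166, adjusted p = 0.00117).

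Other genes of this list that rose covered a wide range of levels. By the means of the groups, Odc1 and Srm, the enzymes that make putrescine and spermidine, went from 19.2 ± 3.52 to 54.3 ± 6.76 FPKM and from 8.50 ± 1.63 to 23.0 ± 0.264 FPKM. Nucleolin (Ncl) went from 24.3 ± 2.1 to 42.0 ± 1.87 FPKM, and nucleophosmin (Npm1) from 46.7 ± 1.85 to 73.0 ± 6.17 FPKM. Cad, which starts pyrimidine synthesis, went from 2.23 ± 0.271 to 3.63 ± 0.55 FPKM. The adjusted p of these 5 genes, which were singled out after their values were seen, lay between 0.00101 and 0.0131.

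The 3 genes of the list that fell do metabolic or repair work. Ung, the uracil glycosylase of base excision repair, measured 4.44, 4.76 and 5.71 FPKM in the controls against 1.75, 1.97 and 1.99 FPKM in the mutants (log2 fold change -1.04, adjusted p = 0.00111). Sord, sorbitol dehydrogenase, went from 91.7 ± 7.98 to 59.0 ± 8.44 FPKM (-0.63, adjusted p = 0.00917). Ldha, lactate dehydrogenase A, which was named because it completes the 3, went from 215 ± 28.3 to 168 ± 4.09 FPKM (-0.35, adjusted p = 0.0468). The call of Ldha was lost in 9 of 14 alternatives, with adjusted p of 0.129 and 0.142 without Ctrl replicates 2 and 3 and of 0.093, 0.0957 and 0.0979 without cKO replicates 1, 2 and 3, while Ung and Sord kept theirs in all 14.

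**Figure D4:**
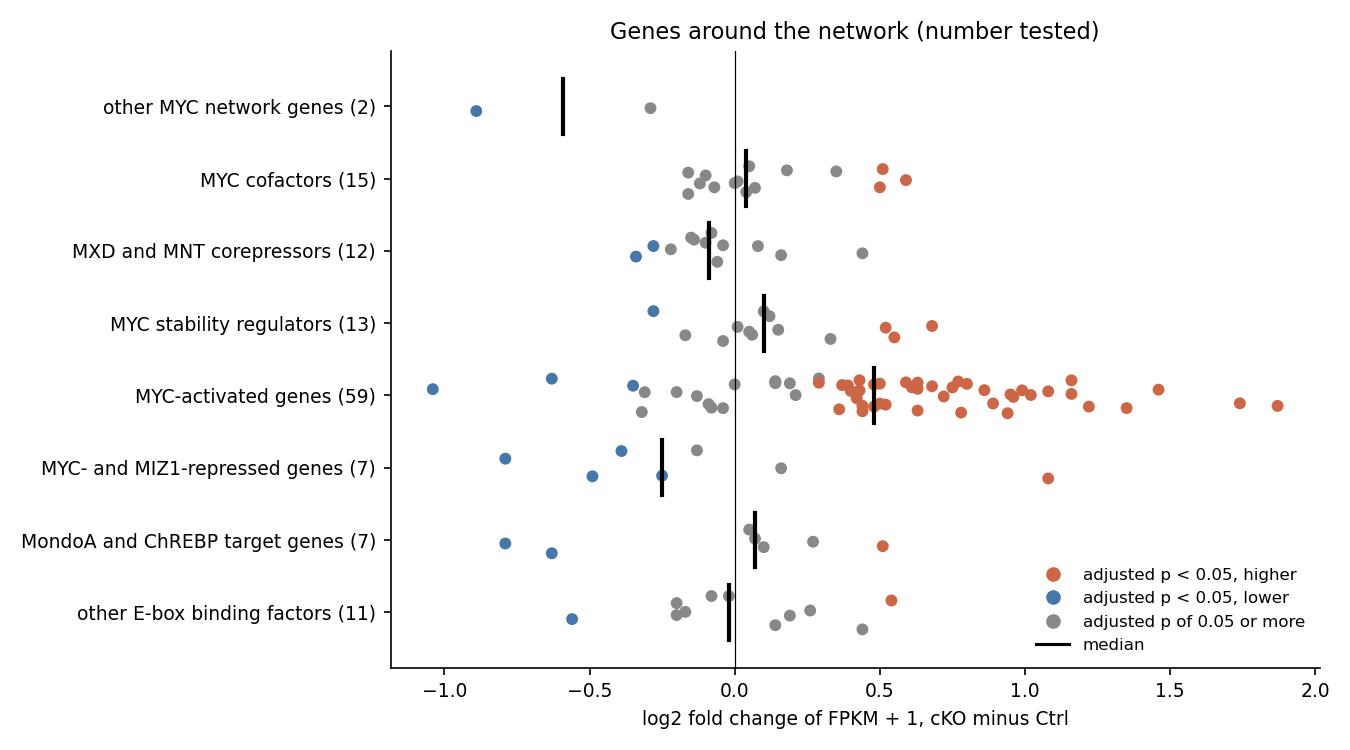
Fitted log2 fold change of FPKM + 1 (horizontal axis, cKO minus Ctrl) of every tested gene in 8 lists around the network, 1 point per gene with vertical scatter only for legibility, coloured by call, with the median of each list as a black bar. The MYC-activated genes lie mostly to the right (41 of 59 higher, median 0.48), and the other lists centre between -0.59 and 0.10.

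The E-box shown above was more frequent in the windows of this list, at 16 of the 57 genes with a window (28.1%) beside 8.09% of all genes. Among genes tested, which leaves out those with little expression, the shares were 28.3% of 53 on the list and 12.0% of 9275 in all. Of the tested genes of the list with CACGTG, 12 of 15 were higher in cKO, and of those without it, 24 of 38 were higher. Over all genes tested that had a window, 22.6% of the 1114 with CACGTG were higher and 13.2% lower, and of the 8161 without it 16.1% were higher and 17.7% lower. These are descriptions, with no test. Klf15, with 3 E-boxes, was lower in cKO, at 26.4, 28.99 and 44.5 FPKM in Ctrl and 17.5, 12.5 and 17.7 FPKM in cKO (log2 fold change -1.0, SE 0.216, adjusted p = 0.0137).

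Of the genes that MYC is known to repress, in part through MIZ1, 4 of 7 tested were lower, 1 was higher and the median log2 fold change was -0.25, beside 17.0% lower and 16.3% higher among all genes. The count of lower genes was 3 in 11 of 14 alternatives, since Cdkn2c, another kinase inhibitor (4.87 ± 0.281 to 3.93 ± 0.249 FPKM, -0.25, adjusted p = 0.0416), lost its call in those, the 6 with a heart left out included (adjusted p of 0.0562 to 0.127). Cdkn1c and Cdkn1b, inhibitors of cyclin-dependent kinases, went from 7.58 ± 0.546 to 3.99 ± 0.857 FPKM and from 10.8 ± 1.5 to 7.38 ± 0.489 FPKM (-0.79 and -0.49, adjusted p = 0.00628 and 0.0137). Cdkn1a, the p21 inhibitor that also answers to p53 and to stress, rose instead, from 15.2, 25.1 and 28.9 FPKM to 57.3, 44.1 and 44.1 FPKM (1.08, adjusted p = 0.0137).

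In the reported fit, genes for the proteins through which the network acts were called in a single direction per list. For the corepressors this depended on the fit. Under scaling without the genes of mitochondrial DNA 2 were higher and 1 was lower, and with replicate number as a block in the model 1 was higher and 2 were lower. Cofactors were higher in 3 of 15 and corepressors lower in 2 of 12, near the shares of all genes (16.3% and 17.0%). In the other direction the limma fit called 0 of each, below those shares, in lists that are short. Of 15 MYC cofactors tested with limma 3 were higher and 0 lower (1 lower at an unadjusted p under 0.05, 0 by voom), with a median of 0.04. Smarcb1, a subunit of the SWI/SNF remodeller that binds MYC, went from 1.86 ± 0.206 to 3.35 ± 0.746 FPKM (0.59, adjusted p = 0.0146, and 0.0538 without Ctrl replicate 2). Ruvbl1, an ATPase of the TIP60 and INO80 complexes, went from 10.8 ± 0.503 to 15.8 ± 0.515 FPKM (0.51, adjusted p = 0.00302). Of 12 corepressors that MXD and MNT proteins use, 0 were higher in the limma fit (1 at an unadjusted p under 0.05, 0 by voom) and 2 were lower, with a median of -0.09. These were Ncor1, a nuclear receptor corepressor (11.6 ± 0.198 to 8.92 ± 0.395 FPKM, -0.34, adjusted p = 0.00957), and Sin3a, the scaffold that MXD proteins bind (4.96 ± 0.368 to 3.91 ± 0.162 FPKM, -0.28, adjusted p = 0.031). When a heart was left out, the call of Sin3a held only for Ctrl replicate 2, and the adjusted p was 0.1 and 0.0897 without Ctrl replicates 1 and 3 and 0.0586, 0.0667 and 0.0673 without cKO replicates 1, 2 and 3. It was also lost under scaling without the genes of mitochondrial DNA (adjusted p = 0.128).

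Among 13 tested regulators of MYC protein stability 3 were higher (23.1%) and 1 was lower (7.69%), beside 16.3% and 17.0% of all genes. Their known effects on MYC differ in direction. Gsk3b, the kinase that phosphorylates MYC for recognition by FBXW7, and named to complete the 3, went from 7.05 ± 0.444 to 10.5 ± 1.13 FPKM (0.52, adjusted p = 0.00714). Set, an inhibitor of the phosphatase PP2A, went from 22.7, 19.8 and 20.3 FPKM in the controls to 35.7, 34.3 and 32.8 FPKM in the mutants (0.68, adjusted p = 0.00191). Pim1, a kinase that stabilises MYC, went from 6.98, 6.14 and 6.41 to 8.98, 10.7 and 10.4 FPKM (0.55, adjusted p = 0.00507). Fbxw7, the ubiquitin ligase that marks phosphorylated MYC for degradation, went from 6.81 ± 0.349 to 5.42 ± 0.273 FPKM (-0.28, adjusted p = 0.0244). Its call was lost without Ctrl replicate 2, Ctrl replicate 3 or cKO replicate 1 (adjusted p = 0.0754, 0.0824 and 0.0644). It was also lost under scaling without the genes of mitochondrial DNA (adjusted p = 0.0774). MYC protein was not measured in these libraries.

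Of 7 tested target genes of MondoA and ChREBP, 1 was higher (14.3%) and 2 were lower (28.6%), with a median of 0.07, where 1 gene is a large share of so short a list. Txnip, the most used readout of MondoA and a brake on glucose uptake, varied widely, with 100.3, 81.7 and 175 FPKM in the controls and 154, 111 and 96.5 FPKM in the mutants, and is named for that role, after its value was seen. The groups overlapped (log2 fold change 0.07, adjusted p = 0.882), and the 95% interval of -0.64 to 0.77 allows a sizeable change either way. Its relative Arrdc4 went from 2.38 ± 0.0629 to 3.82 ± 0.377 FPKM (0.51, adjusted p = 0.0048). Acacb, which makes the malonyl-CoA that restrains fatty acid oxidation, went from 51.8 ± 1.33 to 29.8 ± 4.59 FPKM (-0.79, adjusted p = 0.00379), and Khk, ketohexokinase, from 9.09 ± 1.51 to 5.48 ± 0.148 FPKM (-0.63, adjusted p = 0.00831).

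Factors outside the network that also bind E-boxes showed 1 higher and 1 lower gene among 11 tested (9.09% each, beside 16.3% and 17.0% of all genes). Clock, of the circadian loop, went from 2.62 ± 0.277 to 4.28 ± 0.246 FPKM (0.54, adjusted p = 0.00446). Mitf went from 9.39 ± 0.754 to 6.08 ± 1.12 FPKM (-0.56, adjusted p = 0.0142, and 0.0525 without Ctrl replicate 2).

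The genes whose pattern over the 6 hearts was most like that of Myc, among 11420 protein-coding genes, were Naif1, Snx1 and Sfrp1, with Pearson r of 0.9932, 0.9886 and 0.9852 on log2(FPKM + 1). Those most like Max were Zfpm2, a GATA cofactor of the heart, Bnip3, a mitophagy receptor, and Abtb1, with r of 0.9983, 0.9982 and 0.9972. Bnip3 measured 114, 102 and 157 FPKM in the controls against 59.1, 28.4 and 61.1 FPKM in the mutants, and like Max it was lowest in cKO replicate 2 and highest in Ctrl replicate 3. An r over 0.95 was reached by 53 genes with Myc and by 323 genes with Max. The points are the same 6 libraries in 2 groups, and an r of this size is a description only. The markers of cardiomyocytes and endothelium given above moved with the same groups, and their part in these results was not tested.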

How the data were processed

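Heart RNA of 3 Ctrl and 3 cKO mice was measured, with groups and replicate numbers taken from the sample titles. Per the labels and the study's methods, the authors made poly-A libraries, read them as 150-base paired ends, aligned with HISAT2 2.0.5 and counted reads per gene with featureCounts 1.5.0-p3. The authors then computed the deposited FPKM values from gene length and read number. The submitters' processing notes name mm9, but the 54495 gene identifiers it shares with GENCODE M21 all have the same chromosome there, 53585 of them with identical ends, so coordinates correspond to GRCm38. Strand use in counting was not given in the sources used here. The labels place tissue collection 12 weeks after tamoxifen started at 8 weeks of age, and the methods text gives the age differently.

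FPKM multiplied by the gene length, an other gene-level value the authors deposited, and by a library size inferred for each heart, gave whole reads for all values within a tolerance of 0.01 of a read, and depth per library was recovered from them. Values were tested as log2(FPKM + 1), which understates changes of low genes, with limma 3.58.1 in R 4.3.3 (eBayes with trend, 2 groups, no covariates, two-sided), at a mean of at least 0.5 FPKM and a Benjamini-Hochberg adjusted p under 0.05. The study's own test used counts, and the log-scale fit was used because the unit here is FPKM. The fit was tried on 5 simulated tables with 200 genes changed in each. It recovered 76.3% of 2-fold and 95.6% of 4-fold changes, and 5.51% of its calls were false. Far fewer genes changed there than the 4315 called here, so these rates may not carry over. Errors written ± are SD over 3 hearts. The limma p-values set the difference between groups against the variation between hearts, with the variance of each gene moderated by the other genes. No pair of hearts agreed within counting noise, so none was merged.

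All 10 members are reported, with Mrps5, Klf15, Mga, Mlxipl, Mxd3, in each list up to 2 called genes with the largest change in each direction, and the 3 genes most like Myc and Max. Members, lists and markers were chosen with earlier results of these data known. The alternatives changed the pseudocount (0.1), the filter (none, or 1 FPKM), the scaling (median of ratios, or libraries summed without mtDNA-encoded genes) or the model (no trend in eBayes, voom on the recovered reads, a replicate block), or left out 1 heart in turn. Voom kept the library sizes that the deposited FPKM imply, while the alternative scalings replaced them.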

Additional observations from a re-analysis of the deposited data

How the results depend on the processing

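Myc, Mlxip, Mlxipl, Mrps5 and Klf15 kept direction and call in all 14 alternatives, with log2 fold changes of 1.22 to 1.99 for Myc and -0.65 to -0.49 for Mlxip. Voom on the recovered reads gave the largest Myc value (1.99, adjusted p = 0.00582). Max lost its call with no filter (-0.73, adjusted p = 0.0538) and without Ctrl replicate 3, and Mxi1 lost it in 7 of 14. No member changed sign. Members called lower fell from 3 to 1 with no filter, and to between 1 and 3 with a heart left out. Members called higher went from 1 to 2, with Mlx added, under scaling without mtDNA-encoded genes, a scaling that gave 2649 genes higher and 1620 lower, so that 62.1% of calls were higher beside 48.9% in the reported fit. With a heart left out, 1396 to 1977 genes were higher and 1423 to 2011 lower. Of the MYC-activated genes, 30 to 45 were higher in all alternatives, at a median log2 fold change of 0.45 to 0.63. Mga passed the threshold in 4 alternatives, at adjusted p of 0.0254 to 0.048. Replicate numbers did not pair the hearts (correlation of deviations -0.0554, 0.175 and -0.0148 for numbers 1, 2 and 3). The replicate block gave 1874 genes higher and 1982 lower and ended no call of a member. Depth limits Mycn, Mycl and Mxd3, which had at most 33 reads in any heart.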

Other observations

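The deposited table assigns 100 genes to the basic helix-loop-helix family of transcription factors, to which the network belongs, and 46 of them were tested. The family was looked at after the members' values were known. By the same limma fit, 3 were higher in cKO (6.52%) and 13 were lower (28.3%), beside 16.3% and 17.0% of all genes tested, and the median log2 fold change was -0.19, against -0.02 for all genes tested. The 3 higher genes were Myc, Clock (0.54, adjusted p = 0.00446) and Scx, a factor of tendon and valve cells (0.43, adjusted p = 0.0203). Ranked by log2 fold change from the highest, Myc was at place 1 of 46, Mlx at 7, Mnt at 11, Mxd4 at 27, Mxd1 at 28, Mxi1 at 32, Mlxip at 36 and Max at 43.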
